A study of Mus musculus with 8 samples.

Results

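Visceral endoderm is the epithelium that surrounds the early mouse embryo. It takes up maternal proteins, lipids and vitamins on its outer face and secretes carrier proteins much as a fetal liver would, and it contributes few cells to the fetus apart from part of the gut. The 9 genes described here encode this transport work. Afp (alpha-fetoprotein, a serum carrier), Apoa1 and Apob (the main proteins of high-density and of low- and very-low-density lipoproteins), Ttr (transthyretin, a carrier of thyroid hormone that also holds the retinol-binding protein in plasma), Rbp4 (that retinol-binding protein) and Spink1 (a secreted trypsin inhibitor) are export products. Cubn (cubilin, an endocytic receptor), Amn (amnionless, the membrane anchor that brings cubilin to the surface) and Dab2 (an adaptor that links such receptors to clathrin) serve uptake. They were taken as every probe set annotated with exactly 1 of these 9 symbols. This gave 18 probe sets for 9 genes, of 28898 probe sets for 17097 genes with a single symbol in the table, and all 18 passed the filter on low values.

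RNA was measured in cells sorted from gastrulating Mesp1-rtTA/Teto-H2B-GFP embryos, in which a transactivator under Mesp1 control switches on a nuclear green fluorescent protein. Each sample was 50 live cells, amplified as whole-transcriptome cDNA for 25 cycles and hybridised to a mouse perfect-match array. There were 2 arrays in each of 4 groups, named here GFP+ E7.5, GFP- E7.5, GFP+ E6.5 and GFP- E6.5 after the reporter fraction and the embryonic day (E). All groups carried the same transgenes, and how the transactivator was induced is not given in the sources used here. Because histone-bound GFP is stable, GFP+ cells may include cells in which Mesp1 has since gone down, and GFP- cells are every other live cell of the dissected embryo, whatever its type. The labels call the arrays of a group biological replicates 1 and 2 without saying whether these were separate litters, so p-values measure only the spread between these samples. In samples of many cells, fewer cells of a type and less RNA per cell cannot be told apart, and this holds for every result below.

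All levels are log2 values as deposited, each gene's differences are between groups of arrays, and levels are not compared between probe sets. Values below 4.38, the median of all deposited values, are treated as dim, and a difference against a dim group has an uncertain size. Mesp1 itself was at 9.75 and 10.03 in GFP+ E6.5 cells against 5.64 and 6.26 in GFP- E6.5 cells, and the difference of 3.94 (SE 0.34) passed the test (limma adjusted p = 0.0396 over 18584 probe sets). Array medians were 4.2 to 4.23 in replicate 1 and 4.54 to 4.59 in replicate 2.

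At E6.5 the comparison of fractions asked which genes separate the first reporter-positive cells from the rest. On the used probe sets the levels of the 9 genes ran from 3.33 to 5.57 in GFP+ cells and from 5.47 to 10.46 in GFP- cells. On the probe set with the highest mean of each gene, both GFP+ arrays lay below both GFP- arrays for 9 of 9 genes, against 13.7% of the 11706 genes tested. Over all their probe sets this held for 14 of 18, against 13.2% of 18584, and in 0 of 18 did both GFP+ arrays lie above, against 15.3%. The median difference of the 9 genes was -3.31 (-2.36 and -3.88 within replicates 1 and 2), beside 0.01 over all genes. No probe set of the 9 genes passed the adjusted threshold of 0.05, at which limma called 0.0215% of the 18584 probe sets (4, all higher in GFP+ cells, and 0 lower). At an unadjusted p under 0.05, 8 of 9 genes lay lower, against 3.02% of all genes, and 13 of 18 probe sets, against 2.90%. Of the 18 probe sets, 7 passed the filter on low values only with the GFP- E6.5 arrays counted, those used for Apob and Cubn among them. Entry through a group where a probe set is high favours a difference, so these 7 are no support, although both GFP+ arrays lay below in 6 of them. The other 11 had both GFP+ arrays below in 8 and an unadjusted p under 0.05 in 7, and among the 7 genes whose used probe set is among these 11 the counts were 7 and 6.

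**Figure D1:**
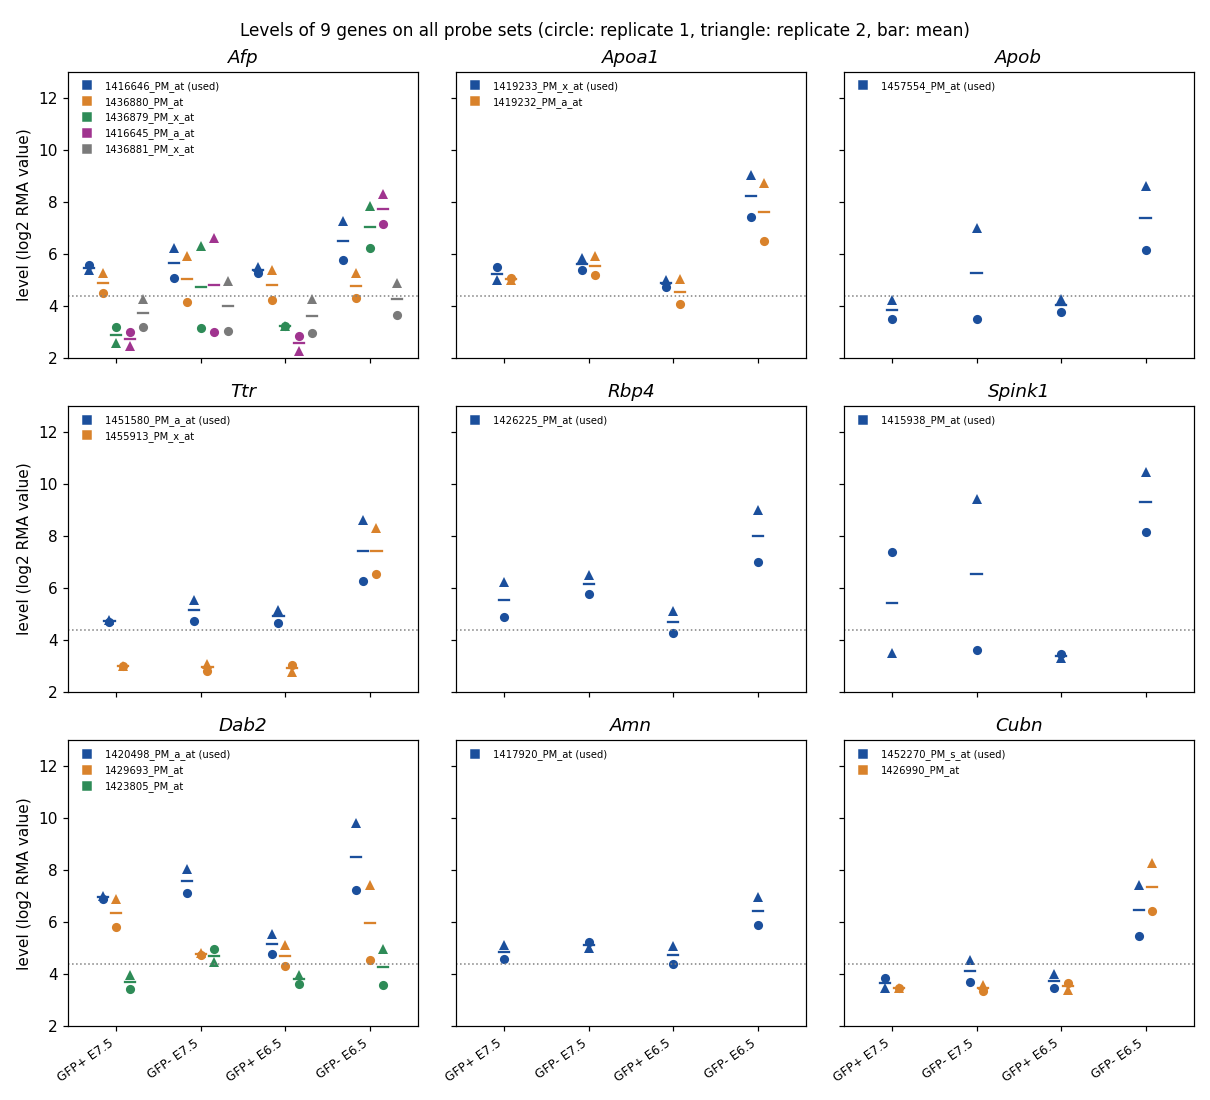
Levels (log2 RMA value) of the 9 genes on each of their 18 probe sets, with a circle for replicate 1, a triangle for replicate 2, a bar for the mean of the 2 arrays and a dotted line at 4.38. Both GFP- E6.5 arrays lie above both GFP+ E6.5 arrays on the used probe set of each gene, and Spink1, Apob and Afp are also high in GFP- E7.5 replicate 2.

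Among the carriers, Apoa1 measured 4.72 and 5.0 in GFP+ E6.5 cells against 7.42 and 9.02 in GFP- E6.5 cells on its brighter probe set. The difference was -3.36 (SE 0.54, limma adjusted p = 0.142), and its other probe set gave -3.06. Apob measured 3.78 and 4.28 in GFP+ cells against 6.14 and 8.62 in GFP- cells. Its groups did not overlap, but the GFP- arrays lay 2.48 apart and the SE was 1.18 for a difference of -3.35 (limma adjusted p = 0.677).

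Rbp4 and Ttr, whose proteins travel together in plasma, stood in the same order. Rbp4 measured 4.28 and 5.12 in GFP+ E6.5 cells against 7.02 and 9.0 in GFP- E6.5 cells, a difference of -3.31 (SE 0.75, limma adjusted p = 0.289). Ttr measured 4.67 and 5.18 in GFP+ cells against 6.26 and 8.61 in GFP- cells on probe set 1451580_PM_a_at, a difference of -2.52 (SE 0.72). On its probe set 1455913_PM_x_at it measured 3.04 and 2.79 in GFP+ cells against 6.53 and 8.31 in GFP- cells. That difference, -4.51 (SE 0.55), had the smallest adjusted p of the 18 at E6.5 (limma adjusted p = 0.0769). This probe set passed the filter through the 2 GFP- E6.5 arrays alone, and the other 6 arrays were dim. Its adjusted p is therefore a description, as are those with a stricter filter (limma adjusted p = 0.0394), which it also passed through those arrays, and with a variance prior that follows the mean level (0.0316). A suffix of x marks a probe set with probes that can also match other transcripts.

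Spink1 measured 3.47 and 3.33 in GFP+ E6.5 cells against 8.16 and 10.46 in GFP- E6.5 cells. Both GFP+ arrays were dim, and the difference of -5.91 had an SE of 1.93 (limma adjusted p = 0.615). That spread was pooled over all groups, including E7.5, where the arrays of a group disagreed by several log2 units.

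The 5 probe sets of Afp disagreed. On the one with the highest mean, 1416646_PM_at, it measured 5.25 and 5.5 in GFP+ E6.5 cells against 5.77 and 7.25 in GFP- E6.5 cells, a difference of -1.14 (SE 0.57, limma adjusted p = 1.00). On 1416645_PM_a_at it measured 2.86 and 2.27 in GFP+ cells against 7.15 and 8.31 in GFP- cells, and differed by -5.17 (SE 1.05, limma adjusted p = 0.244). Probe set 1436879_PM_x_at gave -3.79, 1436881_PM_x_at -0.64 and 1436880_PM_at 0.04. The last of these ranged only from 4.13 to 5.91 over the 8 arrays, and 1436881_PM_x_at from 2.97 to 4.94, whereas 1416645_PM_a_at spanned 2.27 to 8.31. Representing Afp by its highest mean chose a probe set with a smaller range, 2.17, than the 6.05 of 1416645_PM_a_at. However, 1416645_PM_a_at, 1436879_PM_x_at and 1436881_PM_x_at passed the filter on low values only with the GFP- E6.5 arrays counted. Their differences are therefore no support.

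Of the uptake genes, Cubn measured 3.49 and 4.02 in GFP+ E6.5 cells against 5.47 and 7.44 in GFP- E6.5 cells on probe set 1452270_PM_s_at, a difference of -2.70 (SE 0.65, limma adjusted p = 0.335). On 1426990_PM_at it measured 3.67 and 3.41 in GFP+ cells against 6.43 and 8.30 in GFP- cells, and differed by -3.82 (SE 0.57, limma adjusted p = 0.126). Both Cubn probe sets passed the filter on low values only with the GFP- E6.5 arrays counted, so neither difference is support. Amn, without which cubilin does not reach the surface, measured 4.38 and 5.07 in GFP+ cells against 5.88 and 6.98 in GFP- cells. The Amn difference was -1.70 (SE 0.46, limma adjusted p = 0.439), with -1.49 and -1.91 within the replicates.

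Dab2 measured 4.79 and 5.57 in GFP+ E6.5 cells against 7.23 and 9.81 in GFP- E6.5 cells on probe set 1420498_PM_a_at, a difference of -3.34 (SE 0.80, limma adjusted p = 0.332). Its 2 dimmer probe sets overlapped between the fractions, at -1.27 (1429693_PM_at) and -0.46 (1423805_PM_at). Without GFP- E6.5 replicate 2 these dimmer probe sets were at 0.19 and 0.23, and 1420498_PM_a_at at -2.05.

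The 2 GFP- E6.5 arrays differed from each other more than most genes did. Replicate 2 stood above replicate 1 for 9 of 9 genes and 18 of 18 probe sets, by a median of 1.98 (range 1.10 to 2.58 over the genes). Of all probe sets tested 63.3% stood higher in replicate 2, with a median gap of 0.24. Without that array the median difference between fractions of the 9 genes was -2.05, with Afp at -0.40, Apob at -2.11, Ttr at -1.34 and Cubn at -1.72 on the used probe sets. Replicate 1 alone lay above both GFP+ E6.5 arrays for each of the 9 genes. In GFP+ E6.5 cells the same gap between replicates had a median of 0.51, beside 0.19 over all probe sets tested. Ranked within each array among all probe sets tested, the 9 genes had a mean percentile of 18.4 and 20.7 in GFP+ E6.5 cells against 61.3 and 83.6 in GFP- E6.5 cells.

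HNF1, HNF4, FOXA and GATA proteins are known regulators of carrier genes in liver and visceral endoderm. The 250 bases before the annotated start were searched on both strands for GTTAAT (an HNF1 core), AAAGTCC (an HNF4 core), TGTTTAC (FOXA) and AGATAA (for GATA factors) in 9 windows of 7 of the genes, with sequence from RefSeq on GRCm38.p6. GTTAAT was in 2 of the 9 windows, those of Afp and of a Dab2 start, where 6.43% of 32851 windows of all genes hold it. TGTTTAC was in 1, of Rbp4 (3.17% of all windows), AAAGTCC in 0 (3.58%) and AGATAA in 0 (9.99%). The Afp and Dab2 windows are shown because they are the pair with the HNF1 letters, 1 from an export and 1 from an uptake gene, with those letters in capitals. They lie at chr5:90490464-90490713 (plus strand, letters from position -105 relative to the start) and chr15:6386498-6386747 (plus strand, from -65).
Afp: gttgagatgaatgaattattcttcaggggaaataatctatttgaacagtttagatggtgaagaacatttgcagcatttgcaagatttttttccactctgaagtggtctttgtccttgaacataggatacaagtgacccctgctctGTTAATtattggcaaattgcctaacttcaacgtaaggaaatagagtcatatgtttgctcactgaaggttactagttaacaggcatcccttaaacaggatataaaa
Dab2: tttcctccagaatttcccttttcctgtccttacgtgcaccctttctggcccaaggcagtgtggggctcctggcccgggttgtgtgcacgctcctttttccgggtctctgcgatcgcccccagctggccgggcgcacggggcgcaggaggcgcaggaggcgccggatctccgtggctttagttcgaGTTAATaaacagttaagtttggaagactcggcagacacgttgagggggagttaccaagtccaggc
These matches describe the letters only.

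The fractions were set against each other again at E7.5, to ask what still told them apart. On the used probe sets the fractions overlapped for 8 of 9 genes, and Spink1, Apob and Afp were high in a single GFP- array. The median difference of the 9 genes was -0.47 (-0.02 and -0.86 within replicates 1 and 2), beside -0.01 over all genes. Both GFP+ arrays lay below both GFP- arrays for 1 of 9 genes, against 10.8% of all genes, and above for 0 of 9, against 10.3%. By limma 0 of the 18 probe sets passed (adjusted p = 1.00 for each), as did 0% of all 18584, and 0 of the 18 had an unadjusted p under 0.05, against 2.55% of all.

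Spink1 was the least even of the 9. It measured 7.39 and 3.49 in GFP+ E7.5 cells against 3.64 and 9.41 in GFP- E7.5 cells. The high array was thus replicate 1 in the GFP+ fraction and replicate 2 in the GFP- fraction, with differences of 3.75 and -5.92 within replicates 1 and 2. Apob measured 3.49 and 4.23 in GFP+ E7.5 cells against 3.51 and 7.0 in GFP- E7.5 cells. On probe set 1416645_PM_a_at Afp measured 2.99 and 2.45 in GFP+ cells against 2.99 and 6.61 in GFP- cells. For these 3 genes GFP- E7.5 replicate 2 stood well above the remaining GFP- array, and without it the Spink1 difference was 1.80 and that of Apob 0.35.

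The same array was the highest of the 4 at E7.5 for Ttr and Cubn on the used probe sets. Ttr measured 4.70 and 4.78 in GFP+ E7.5 cells against 4.75 and 5.55 in GFP- E7.5 cells (difference -0.41), and Cubn 3.85 and 3.48 in GFP+ cells against 3.70 and 4.56 in GFP- cells (difference -0.47). Over the GFP- E7.5 fraction replicate 2 stood above replicate 1 in 16 of 18 probe sets, by a median of 0.86 over the genes. Of all probe sets tested 59.7% stood higher there, with a median gap of 0.19. The further probe sets of Ttr and Cubn were dim on all 4 arrays. Ttr on 1455913_PM_x_at measured 3.00 and 2.99 in GFP+ E7.5 cells against 2.82 and 3.09 in GFP- E7.5 cells. Cubn on 1426990_PM_at measured 3.47 and 3.49 in GFP+ cells against 3.36 and 3.61 in GFP- cells. Their differences were 0.04 (95% interval -1.24 to 1.32) and -0.00 (-1.33 to 1.33), intervals that leave room for changes of over a log2 unit either way. Amn measured 4.58 and 5.11 in GFP+ cells against 5.23 and 5.01 in GFP- cells, a difference of -0.27 (95% interval -1.36 to 0.81).

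Apoa1 measured 5.51 and 4.98 in GFP+ E7.5 cells against 5.40 and 5.84 in GFP- E7.5 cells on its brighter probe set, and the arrays of the fractions overlapped. On 1419232_PM_a_at they did not, at 5.09 and 4.99 in GFP+ cells against 5.20 and 5.90 in GFP- cells (difference -0.51). Rbp4 measured 4.87 and 6.25 in GFP+ cells against 5.78 and 6.51 in GFP- cells, with overlap. Dab2 was the single gene whose fractions did not overlap on the used probe set, at 6.90 and 7.03 in GFP+ cells against 7.12 and 8.07 in GFP- cells (difference -0.63, 95% interval -2.49 to 1.23). Its probe set 1429693_PM_at ran the other way, at 5.84 and 6.90 in GFP+ cells against 4.76 and 4.82 in GFP- cells (difference 1.58, 95% interval -0.48 to 3.63). On 1423805_PM_at Dab2 measured 3.44 and 3.96 in GFP+ cells, both dim, against 4.96 and 4.46 in GFP- cells (difference -1.01, 95% interval -2.18 to 0.16).

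Between the stages the question was whether either fraction altered these genes over the day. In GFP- cells the values at E7.5 lay under those at E6.5 for 9 of 9 genes within both replicate numbers, with a median difference of -2.12 (-1.52 and -1.97 within replicates 1 and 2), beside -0.01 over all genes. Without GFP- E6.5 replicate 2 this median was -0.88. Both E7.5 arrays lay below both E6.5 arrays for 5 of 9 genes, against 13.6% of all genes, namely Apoa1, Ttr, Rbp4, Amn and Cubn. Afp, Apob, Spink1 and Dab2 overlapped on the used probe set. Of 18 probe sets 0 passed by limma, against 0.0753% of all (14 of 18584), and 10 lay lower at an unadjusted p under 0.05, against 2.88%. Leaving aside the 7 that passed the filter only with the GFP- E6.5 arrays, 5 of 11 lay lower at that p. Among the 7 genes whose used probe set is among these 11, which leaves out Apob and Cubn, both E7.5 arrays lay below in 4.

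The smallest adjusted p in GFP- cells was again that of Ttr on 1455913_PM_x_at. It measured 2.82 and 3.09 at E7.5 against 6.53 and 8.31 at E6.5, a difference of -4.47 (SE 0.55, limma adjusted p = 0.0603). It entered the test through the GFP- E6.5 arrays alone, so this is no support. The same holds for its values with all 8 arrays quantile-normalised together (limma adjusted p = 0.0357), with the stricter filter (0.0328), with a variance prior that follows the mean level (0.0212) and without GFP- E6.5 replicate 1 (0.0322). Cubn on 1426990_PM_at measured 3.36 and 3.61 at E7.5 against 6.43 and 8.30 at E6.5, a difference of -3.88 (SE 0.57, limma adjusted p = 0.100). It too entered through those 2 arrays alone, which also bears on its values with the prior that follows the mean level (limma adjusted p = 0.0446) and without GFP- E6.5 replicate 1 (0.0463). Apoa1 measured 5.40 and 5.84 at E7.5 against 7.42 and 9.02 at E6.5, a difference of -2.61 (SE 0.54, limma adjusted p = 0.224). Spink1 in GFP- cells was at -2.79 (SE 1.93), and at 0.10 without GFP- E7.5 replicate 1.

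Between stages in GFP+ cells 0 of 9 genes passed (limma adjusted p = 1.00 for each probe set), against 0.0161% of all probe sets. At an unadjusted p under 0.05 there were 0 of 18, against 3.71%. The median difference was 0.12 (0.36 and -0.02 within the replicates), beside -0.03 over all genes. Dab2 and Spink1 were the 2 of 9 genes with both E7.5 arrays above both E6.5 arrays, against 11.8% of all genes. Dab2 measured 6.90 and 7.03 at E7.5 against 4.79 and 5.57 at E6.5, a difference of 1.79 (95% interval -0.08 to 3.65), and its probe set 1429693_PM_at gave 1.65. For Spink1 the high value was that of replicate 1 alone, with differences of 3.92 and 0.17 within the replicates.

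**Figure D2:**
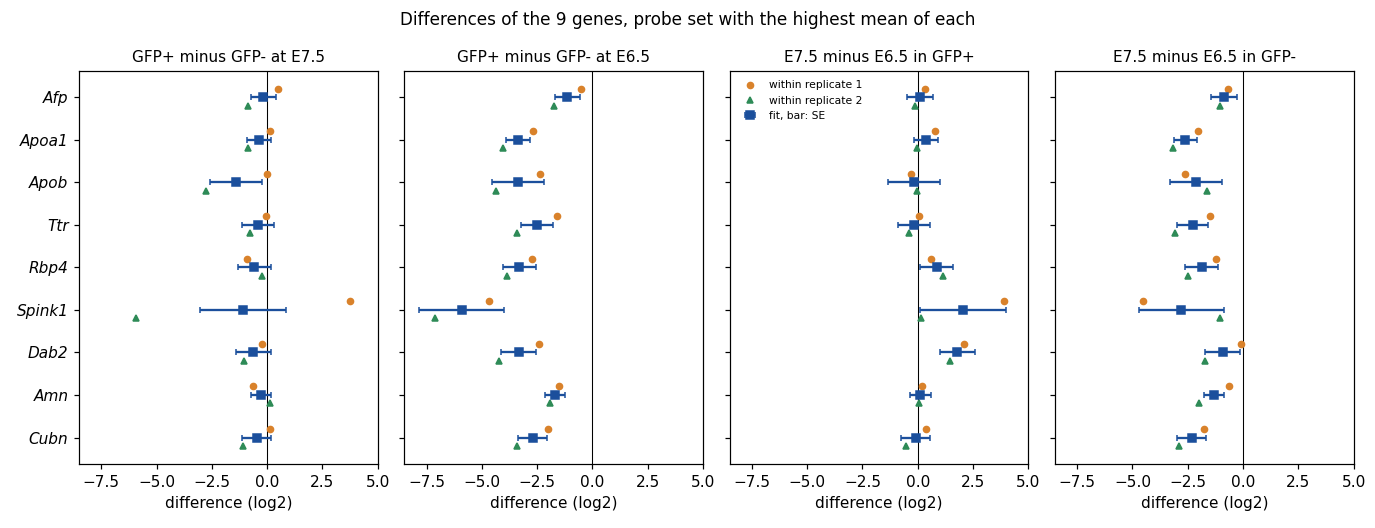
Differences on the log2 scale for the probe set with the highest mean of each gene, in the fractions at E7.5 and at E6.5 and between the stages in GFP+ and in GFP- cells. Squares with bars are the fitted difference and its SE, circles and triangles the difference within replicates 1 and 2, and all 9 genes lie left of 0 in both replicates at E6.5 and in GFP- cells.

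Tested directly, the difference between fractions at E7.5 minus that at E6.5 was above 0 for 9 of 9 genes within both replicate numbers, with a median of 2.24, and of 1.25 without GFP- E6.5 replicate 2. By limma 0 of 18 probe sets passed (adjusted p = 1.00 for each), as did 0% of all, and 4 of 9 genes had an unadjusted p under 0.05, against 1.25% of all genes in that direction. Cubn is among these 4, and its used probe set passed the filter only with the GFP- E6.5 arrays counted, so it is no support. Averaged over both stages, the difference between fractions had a median of -1.87. At an unadjusted p under 0.05, 8 of 9 genes lay lower (3.01% of all genes). Apob and Cubn are among these 8 and are no support for the same reason. In that average 0 passed (limma adjusted p = 0.264 or more on the used probe sets), against 0.00538% of all probe sets.

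In the order of their group means GFP- E6.5 came first and GFP- E7.5 next for 9 of 9 genes. How many of all genes had this order was not counted. For Apob and Cubn, whose used probe sets passed the filter only with the GFP- E6.5 arrays counted, the first place is no support. The GFP+ groups took the last places, with E6.5 last for 6 genes and E7.5 last for Apob, Ttr and Cubn. Only 1 of the 3 gaps between neighbouring groups exceeded the pooled SD for each gene. It was the gap below GFP- E6.5 for 8 of the genes, as in Ttr (gap 2.29, pooled SD 0.90), and for Dab2 the gap between the GFP+ stages (1.79 against 1.01). The pooled SD takes in all 4 groups, so a wide group raises it for every gap, as GFP- E6.5 (SD 1.82) did for Dab2. With 2 arrays a group, a gap below it does not show that neighbouring groups were alike.

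The 9 genes varied together across the arrays. After each value was set against the mean of its replicate number, the 36 pairs had a median Pearson correlation of 0.90 over the 8 arrays, from 0.58 (Spink1 with Amn) to 0.99 (Ttr with Cubn). These correlations are over 2 arrays in each of 4 groups, which share their libraries across genes, and are given as a description. The genes outside the 9 whose profile was most like their mean were Plch1 (r = 0.99), Myo7a (0.99), Nav1 (0.98), Cdc42ep5 (0.98), Nudt19 (0.97), Trf (0.96), Dmd (0.96) and Atp8a1 (0.96), over the same 8 arrays. Trf encodes transferrin, the iron carrier of serum. Plch1, Myo7a and Dmd had mean levels of 3.88, 4.01 and 3.96, so they were dim on average.

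Other genes of the same functions followed in part. Of 18 genes for secreted carriers and lipoprotein assembly, 9 passed the filter. At E6.5 8 of these lay lower and 1 higher in GFP+ cells by value, where 48.1% of all genes lay lower. Of these 0 passed, and the median difference was -0.69. Apoc2, the activator of lipoprotein lipase, measured 4.59 and 4.58 in GFP+ E6.5 cells against 7.63 and 6.29 in GFP- E6.5 cells (difference -2.37, SE 0.47, limma adjusted p = 0.224). Trf measured 3.71 and 3.99 in GFP+ cells against 4.87 and 6.78 in GFP- cells (difference -1.98, SE 0.65, limma adjusted p = 0.615). The list also held genes without such a gap: Apoa2, a further protein of high-density lipoprotein, lay between 5.34 and 5.60 on all 8 arrays. At E7.5 the median difference of the list was -0.06, and Stra6, the cell-surface receptor for Rbp4, measured 5.99 and 7.01 in GFP+ E7.5 cells against 3.92 and 5.32 in GFP- E7.5 cells (difference 1.88, SE 0.58, limma adjusted p = 1.00).

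Of 14 uptake partners 10 passed the filter. In GFP+ E6.5 cells 8 lay lower and 2 higher by value (48.1% of all genes lay lower), with 0 past the threshold and a median of -0.41. Folr1, a folate receptor, measured 3.82 and 4.02 in GFP+ E6.5 cells against 5.97 and 6.38 in GFP- E6.5 cells (difference -2.26, SE 0.37, limma adjusted p = 0.15). It also had 4.29 and 4.11 in GFP+ E7.5 cells against 5.74 and 4.92 in GFP- E7.5 cells. The next largest differences at E6.5 were those of Scarb1, a receptor for high-density lipoprotein, at -0.94, of Tfrc, the transferrin receptor, at -0.93 and of Gipc1, an adaptor of endocytic receptors, at -0.52. Lrp2, the partner receptor of cubilin, was not analysed here.

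**Figure D3:**
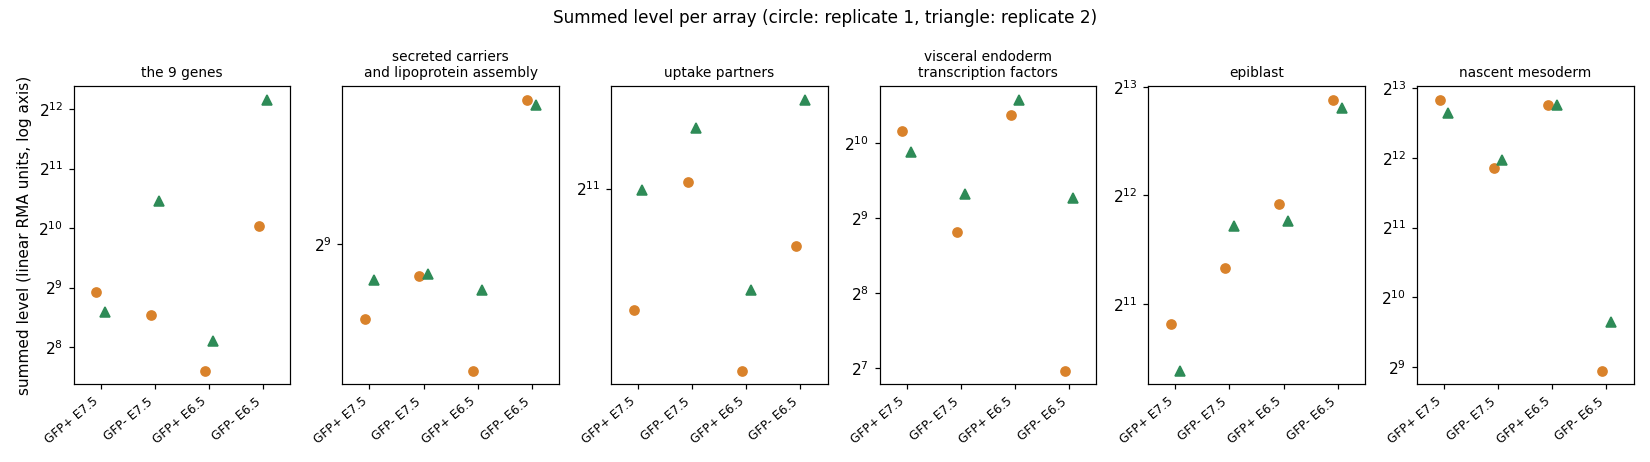
Summed level per array (linear RMA units on a log axis, each panel with its own scale) of the 9 genes and 5 comparison lists, with a circle for replicate 1 and a triangle for replicate 2. The 9 genes sum to 194 and 275 in GFP+ E6.5 cells against 1044 and 4574 in GFP- E6.5 cells, while the nascent mesoderm list runs the other way.

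Markers of other cells moved with the fractions too, and their part in these results was not tested. Of 6 nascent mesoderm genes measured, 3 passed and rose in GFP+ E6.5 cells, against 0.0215% of all probe sets that passed. Mesp1, whose reporter defined the sort, is among these 3. The summed linear level of the list was 6938 and 6905 in GFP+ E6.5 cells against 493 and 803 in GFP- E6.5 cells. At E7.5 that list stood at 7299 and 6366 in GFP+ cells against 3702 and 4025 in GFP- cells. Aplnr, a receptor of migrating mesoderm, measured 9.86 and 9.58 in GFP- E7.5 cells against 3.29 and 3.69 in GFP- E6.5 cells, a rise of 6.23 (SE 0.32, limma adjusted p = 0.00197). Epiblast genes summed to 3868 and 3467 in GFP+ E6.5 cells against 7561 and 7175 in GFP- E6.5 cells. By gene that list was uneven at E6.5, with 0 past the threshold and a median difference of -1.09. Utf1 differed by -3.70, Slc7a3 by -3.54, Sox2 by -1.68, Fgf5 by -1.09 and Pim2 by -1.03. Nanog (-0.23) and Pou5f1 (0.06) hardly differed.

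Of 6 visceral endoderm regulators measured, 4 lay lower and 2 higher by value in GFP+ E6.5 cells, where 48.1% of all genes lay lower. Their median was -0.78, with 0 past the threshold. Hnf4a was at -0.97, Foxa3 at -1.10, Sox17 at -0.89 and Foxa2 at -0.68. Hnf4a passed the filter on low values only with the GFP- E6.5 arrays counted, so its difference is no support. Gata4 was at 2.76 and Gata6 at 3.63, a pair also known in mesoderm. The linear sum weights that bright pair most, and it stood at 1323 and 1523 in GFP+ E6.5 cells against 125 and 613 in GFP- E6.5 cells, with Gata6 at 9.86 and 9.83 against 4.64 and 7.80. GFP- E6.5 replicate 2, the array with the higher transport genes, also exceeded replicate 1 in Gata6. It did so in Hhex (7.54 against 4.65) and in Cer1 (9.78 against 5.49), both known in anterior visceral endoderm. That array was also higher in Gata4 (7.46 against 4.45), Lhx1 (8.78 against 4.43) and the nascent mesoderm gene Mixl1 (7.90 against 4.50). Of the other nascent mesoderm genes measured, Mesp1, Snai1 and Aplnr also stood higher in that array, Aplnr while dim in both replicates. Fn1 and Tbx6 stood slightly lower there, Tbx6 while dim in both replicates. Which cells made these gaps was not tested. Of 7 anterior visceral endoderm genes, 5 lay lower and 2 higher by value in GFP+ E6.5 cells. Their median was -0.61, from Cer1 at -3.36 to Lhx1 at 3.34, with 0 past the threshold. Parietal endoderm genes summed to 1663 and 1734 in GFP+ E6.5 cells against 1372 and 2262 in GFP- E6.5 cells, and definitive endoderm genes to 186 and 215 against 1392 and 1973. The definitive endoderm sum weights its bright genes most, Trh (difference -3.33) and Cer1 (-3.36). The other measured genes of that list, Sox17, Foxa2 and Pyy, differed by -0.89, -0.68 and -0.12, and 0 of the list passed. Of 7 extraembryonic ectoderm genes 6 lay lower by value in GFP+ E6.5 cells (48.1% of all genes), with a median of -1.82 and 0 past the threshold. Rhox5, also known in visceral endoderm, was at -4.34, Esrrb at -2.16, Bmp4 at -2.03 and Elf5 at -1.82, while Eomes, also known in mesoderm, was at 1.40. Esrrb and Elf5 passed the filter on low values only with the GFP- E6.5 arrays counted. Their differences are no support, nor is the median, which is the value of Elf5. The levels of this list summed to 2195 and 1399 in GFP+ E6.5 cells against 1116 and 1980 in GFP- E6.5 cells. In GFP+ E6.5 cells that sum was mostly Eomes, at 11.01 and 10.30 there against 9.17 and 9.34 in GFP- E6.5 cells. Primitive erythroid genes, with 2 of 5 measured, summed to 34.5 and 38.8 in GFP+ E7.5 cells against 186 and 91.5 in GFP- E7.5 cells.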

How the data were processed

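The deposited table holds log2 values per probe set, which the authors made with RMA (a background correction, quantile normalization and probe summary), per the submitters' processing notes. Which version of RMA was run is not given in the sources used here. The distributions of the arrays differed by 0.03 on average among arrays sharing a replicate number and by 0.23 across the numbers, so a separate normalization of each number is possible and is not stated in the labels. Names came from the platform annotation. Of 45141 probe sets, 104 were controls, 28898 carried 1 symbol, 551 several and 15588 none. The filter on low values required 2 or more of the 8 arrays above 4.38 and left 18584 probe sets of 11706 genes. The 6 comparisons came from a single model of group means without a block, fitted by limma 3.58.1 under R 4.3.3 (functions lmFit and eBayes; 4 residual and 3.36 prior degrees of freedom). Adjustment was by Benjamini-Hochberg over the 18584, and the code was tested on simulated data. Counts of genes use the probe set with the highest mean of each. The members and lists were chosen with earlier results of these data known. The genes named are all 9 members, the list genes past the threshold with up to 4 others of the largest difference in a comparison, and the 8 most alike in profile. Apoa2, Sox17, Foxa2, Eomes and Pou5f1 were chosen after their values were seen. Across probe sets, arrays of the same number deviated together from their group means in each of the 6 group pairs (r between 0.40 and 0.53). The labels do not say what a number shares, so the reported p-values take no account of such a pairing. Differences within each number are given beside the fit, with a replicate block as an alternative. The alternatives were that block, another normalization, other filters, other summaries of a gene, other variance priors and the omission of single arrays. Promoter windows of 2 of the genes were not used here. The number of arrays limits the precision.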

Additional observations from a re-analysis of the deposited data

How the results depend on the processing

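The direction of the used probe set was kept for 9 of 9 genes at E6.5, in the mean of both stages and in the interaction under each alternative run, and no alternative gave a call on a used probe set. The replicate block moved the number of probe sets called to 10 at E6.5 (4 without it), 7 in the mean of both stages (1) and 53 between stages in GFP- cells (14), and it changed no call of the 18. At E6.5 a stricter filter gave 20 calls, a single probe set a gene 9, averaging a gene's probe sets 9, a prior with a trend 23 and only the 4 arrays of the comparison 0. In the mean of both stages a stricter filter gave 6, averaging probe sets 4 and the trend 15. Between stages in GFP+ cells (3) no filter gave 0, a stricter filter 5, the trend 5 and only 4 arrays 0. In GFP- cells quantile normalization of all arrays gave 34, a stricter filter 32, the trend 46 and only 4 arrays 4. The trend gave 2 for the interaction (0). Leaving out single arrays gave 0 to 1 calls at E6.5, 0 to 0 in the mean, 0 to 0 in GFP+ and 2 to 5 in GFP- cells. The cause of these moves was not tested, apart from the fewer tests or arrays that filters and omissions bring.

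Leaving out single arrays gave a median of the 9 genes of -4.16 to -2.05 at E6.5, weakest without GFP- E6.5 replicate 2. Over the same omissions it was -0.025 to 0.46 between stages in GFP+ cells, -3.31 to -0.88 in GFP- cells and 1.25 to 3.28 for the interaction. The interaction median was 2.49 with all arrays normalized together and 2.73 after averaging probe sets, and the median between stages in GFP- cells was -1.52 within replicate 1.

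Some directions turned when single arrays were left out, all of values that did not pass, and are given as ranges. At E6.5 Afp 1436880_PM_at ran from -0.55 to 0.62, Dab2 1423805_PM_at from -1.15 to 0.23 and Dab2 1429693_PM_at from -2.72 to 0.19. At E7.5 Afp 1416646_PM_at ran from -0.75 to 0.40, Apob from -3.14 to 0.35, Rbp4 from -1.27 to 0.11 and Spink1 from -3.97 to 1.80. Between stages in GFP+ cells Afp 1416646_PM_at ran from -0.025 to 0.23, Apob from -0.54 to 0.21, Ttr 1451580_PM_a_at from -0.43 to 0.077, Amn from -0.23 to 0.46 and Cubn 1452270_PM_s_at from -0.36 to 0.18. That Cubn value was 0.032 with all arrays normalized together. Between stages in GFP- cells Afp 1436880_PM_at ran from -0.64 to 1.14, Afp 1436881_PM_x_at from -1.20 to 0.69 and Spink1 from -5.67 to 0.099. In the same cells Dab2 1420498_PM_a_at ran from -2.21 to 0.37, Dab2 1423805_PM_at from -0.25 to 1.13 and Dab2 1429693_PM_at from -2.65 to 0.25. With no background measure per probe set, values below 4.38 limit what can be said of GFP+ cells.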
